A study of Homo sapiens with 6 samples.

Results

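The Krüppel-like factors KLF2, KLF3, KLF4, KLF5, KLF6, KLF7, KLF9, KLF10, KLF11 and KLF13 were followed in RNA-seq read counts of A549 cells, an established line from a human lung adenocarcinoma. They were picked by gene symbol and make up 10 of the 60624 genes in the count table, and 10 of the 18 genes named KLF1 to KLF18. All 10 had enough counts to enter the test, which covered 16652 genes. The tested cells carried a CRISPR/Cas9 deletion of RAVER1, a gene for an RNA-binding protein that works with the splicing regulator PTBP1, and were set against parental cells of genotype WT, with 3 libraries of polyA RNA in each group. The labels name no treatment beyond the genotype. All 3 knockout libraries carry the name KO2, and the labels do not say whether that is 1 clone, so p-values cover the variation among these 6 libraries and say nothing of how separately made knockout lines would vary.

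Krüppel-like factors are transcription factors that bind GC-rich and CACCC-type DNA with zinc fingers at their C-terminal end. The fingers are much alike across the family, while the N-terminal part differs and recruits different partners. KLF2, KLF4, KLF5, KLF6 and KLF7 belong to the group that can recruit acetyltransferases, KLF9, KLF10, KLF11 and KLF13 belong to the group that binds the corepressor SIN3A, and KLF3 recruits the corepressor CtBP. In epithelia KLF4 is known for cell cycle exit and differentiation and KLF5 for proliferation, and KLF10 and KLF11 were first described as genes induced early by TGFB.

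Total counts ran from 31200927 to 39910127 in the knockout libraries and from 29811747 to 34359060 in the parental libraries. RAVER1 itself averaged 2.73 ± 0.17 CPM (read counts scaled to depth with TMM factors) in knockout cells and 69.7 ± 3.8 CPM in parental cells (SD, n = 3 each). The epithelial keratin genes KRT8 and KRT18 were abundant in both groups, at 2267 and 1479 CPM in knockout cells, against 3761 and 2844 CPM in parental cells. EPCAM was low, at 1.13 CPM in knockout and 3.73 CPM in parental cells. All 4 epithelial markers, with KRT19, were called lower in knockout cells. Of 6 alveolar markers 0 had enough counts to be tested, and their summed level was 0.129 to 0.207 CPM in knockout and 0.215 to 0.329 CPM in parental libraries. In bulk RNA, fewer cells with a transcript and less of it per cell cannot be told apart.

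All 10 genes differed between the groups. KLF2, KLF6, KLF7, KLF9, KLF10 and KLF11 rose in knockout cells, and KLF3, KLF4, KLF5 and KLF13 fell, each with an adjusted p under 0.05 in edgeR's quasi-likelihood test, adjusted over all tested genes with the Benjamini-Hochberg method. Of all tested genes, 41.4% passed that threshold. As shares of the genes tested, 21.3% were higher and 20.1% lower. The libraries of the groups did not overlap for any of the 10 genes, against 50.2% of all tested genes. The median absolute log2 fold change was 0.61 over the 10 genes and 0.19 over all tested genes. Only KLF4 changed at least 2-fold, as did 6.83% of all tested genes. The genes were listed with results of these data known, so their count is a description of these 10 genes.

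**Figure D1:**
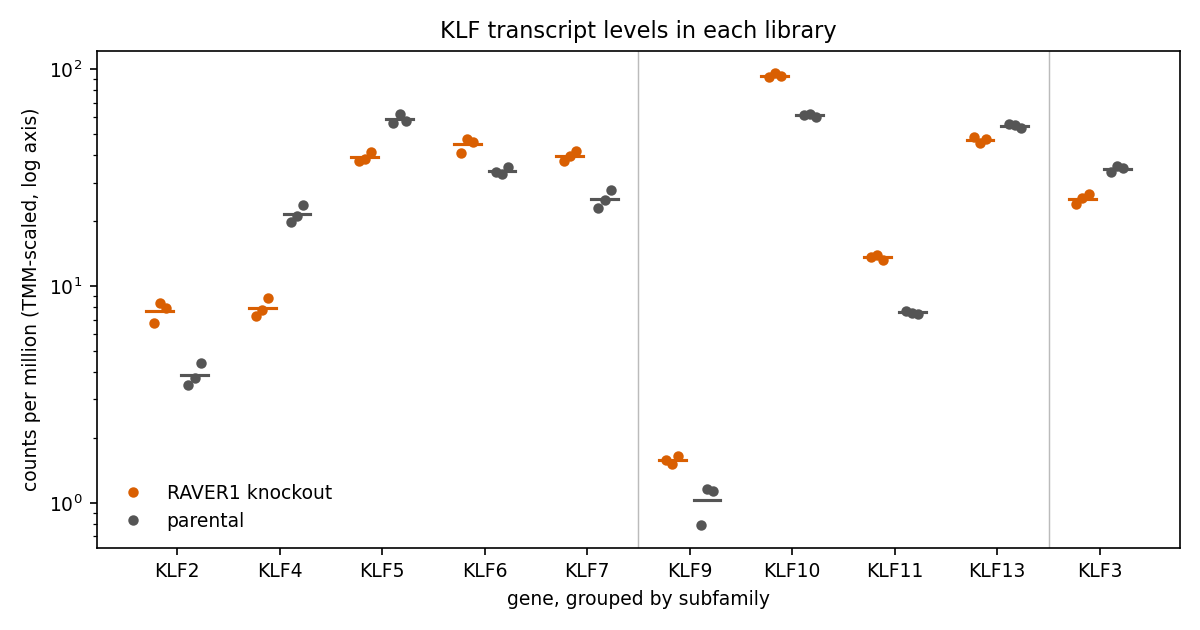
TMM-scaled read counts (CPM) of the 10 Krüppel-like factor genes on a log axis, with 1 point per library, a bar at the mean of 3 libraries, knockout in orange and parental in grey, and grey lines between the subfamilies. For all 10 genes the 3 knockout points lie wholly above or wholly below the 3 parental points, and the distance is widest for KLF4.

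KLF4 and KLF2 are close relatives that moved in opposite directions, and their promoters are shown because this pair had the widest split. Both stretches end at or before the transcription start site, leave out annotated exon bases, and run 5′ to 3′ on the gene's strand, from RefSeq on GRCh38.p14. Capitals mark the GC box GGGCGG, on either strand, and the MEF2 consensus, the site of the factors that drive KLF2 in endothelium.
KLF4, chr9:107489770-107490019, minus strand: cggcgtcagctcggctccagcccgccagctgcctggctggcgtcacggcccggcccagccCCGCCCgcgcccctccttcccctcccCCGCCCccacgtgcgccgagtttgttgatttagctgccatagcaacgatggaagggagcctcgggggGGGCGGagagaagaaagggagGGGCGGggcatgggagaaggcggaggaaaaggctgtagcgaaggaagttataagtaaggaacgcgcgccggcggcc
KLF2, chr19:16324576-16324816, plus strand: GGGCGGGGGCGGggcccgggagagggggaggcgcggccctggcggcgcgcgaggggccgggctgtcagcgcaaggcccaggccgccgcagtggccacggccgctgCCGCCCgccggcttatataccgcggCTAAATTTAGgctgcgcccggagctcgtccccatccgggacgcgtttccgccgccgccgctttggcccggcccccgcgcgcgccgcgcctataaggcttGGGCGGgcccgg
The 250 bases before the start held 4 GC boxes in each gene, in which neighbouring matches can touch. Of 35116 windows of that length before RefSeq starts, 42.6% held a GC box. The KLF2 window held 1 MEF2 consensus match, which begins 120 bases before the start site, while 2.8% of all windows held one. No MEF2 match was found among the letters of the KLF4 window. The other motifs searched were the CACCC box, which 54.7% of all windows held, TGACGTCA (1.65%), TATAAA (10.7%) and the CArG box (1.16%), and none of them was present in either window. RefSeq windows were at hand for 8 of the 10 genes, 13 windows in all, and 8 of the 13 held a GC box and 1 a MEF2 match.

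KLF4 (ENSG00000136826, hg38 chromosome 9, 107484852 to 107490482, minus strand), which drives epithelial differentiation and is one of the factors used to reprogram cells to pluripotency, showed the largest change of the 10. Its counts were 281, 308 and 274 in knockout replicates 1, 2 and 3, and 674, 637 and 764 in parental replicates 1, 2 and 3. Scaled to depth, KLF4 averaged 7.94 ± 0.80 CPM in knockout and 21.4 ± 2.0 CPM in parental cells (SD, n = 3 each), and the highest knockout library, at 8.83 CPM, was below the lowest parental one, at 19.7 CPM. KLF4 fell to 0.370 of the parental level, a log2 fold change of -1.43 (SE 0.089, edgeR adjusted p 2.00e-10). On its chromosome, 16 of 684 tested genes had a fold change as low or lower, KLF4 included.

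KLF2 (ENSG00000127528, hg38 chromosome 19, 16324817 to 16327874, plus strand), first found in lung and known for keeping endothelial cells and T cells quiescent, rose most. Its counts were 260, 331 and 246 in the knockout libraries, and 120, 114 and 143 in the parental libraries. These correspond to 7.66 ± 0.83 CPM in knockout and 3.88 ± 0.46 CPM in parental cells (SD, n = 3 each). The lowest knockout library, at 6.72 CPM, lay above the highest parental one, at 4.4 CPM. KLF2 stood 1.97-fold higher, with a log2 fold change of 0.98 (SE 0.12, edgeR adjusted p 1.76e-06). The summed level of the endothelial markers PECAM1, CDH5, VWF, KDR, TEK and ESAM was 13.8 to 15.3 CPM in knockout and 7.82 to 7.90 CPM in parental libraries, nearly all of it from ESAM, at 14.4 CPM in knockout and 7.78 CPM in parental cells, while PECAM1 had a count of 0 in every library and the other 4 averaged under 0.05 CPM in both groups. RAVER1 lies on the same chromosome, at 10316212 to 10333640 on the minus strand.

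KLF2 and KLF4 reads were also compared within single libraries. The ratio of KLF2 to KLF4 reads was 0.925, 1.07 and 0.898 in the knockout libraries, so both genes had about as many reads as each other there. In the parental libraries it was 0.178, 0.179 and 0.187. The ratio was 5.31-fold higher in knockout cells, and the exact two-sided permutation test over 3 against 3 libraries gave p = 0.1, the smallest value it can give, which also stood after adjustment over the 4 pairs of related genes compared.

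KLF5 (ENSG00000102554, hg38 chromosome 13, 73054976 to 73077542, plus strand), which promotes proliferation in intestinal crypts and other epithelia, fell as well. Its levels were 37.6, 38.7 and 41.4 CPM in the knockout libraries and 56.4, 62.1 and 57.6 CPM in the parental libraries. The groups were far apart relative to their spread, and KLF5 fell to 0.668 of the parental level (log2 fold change -0.58, SE 0.057, edgeR adjusted p 1.18e-07). KLF4 and KLF5, the members best known from epithelia, were thus both lower in knockout cells, in the same libraries in which the 4 epithelial markers were lower, and whether these changes are linked was not tested.

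KLF6 (ENSG00000067082, hg38 chromosome 10, 3775996 to 3785281, minus strand), a widely expressed factor studied as a tumour suppressor, was at 41.0, 47.8 and 46.1 CPM in the knockout libraries and at 33.4, 33.0 and 35.5 CPM in the parental libraries. It rose 1.32-fold (log2 fold change 0.40, SE 0.063, edgeR adjusted p 3.91e-05), and knockout replicate 1 was the library nearest to the parental range. KLF6 transcripts are known to be alternatively spliced, and counts summed over the gene do not show which forms changed.

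KLF7 (ENSG00000118263, hg38 chromosome 2, 207074137 to 207167267, minus strand), the nearest relative of KLF6 and known for its part in axon growth, was at 37.5, 39.7 and 42.1 CPM in the knockout libraries and at 22.8, 24.9 and 27.6 CPM in the parental libraries. It rose 1.58-fold (log2 fold change 0.66, SE 0.070, edgeR adjusted p 3.20e-07). The ratio of KLF6 to KLF7 reads averaged 1.13 ± 0.06 in knockout and 1.36 ± 0.09 in parental libraries (SD, n = 3 each), a log2 difference of -0.26 (exact permutation p = 0.1, the smallest possible, unchanged by adjustment over the 4 pairs). The groups of ratios did not overlap.

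KLF10 (ENSG00000155090, hg38 chromosome 8, 102648779 to 102655902, minus strand), also called TIEG1, was the most abundant of the 10 per length in knockout cells. Its levels were 91.7, 95.7 and 93.1 CPM in the knockout libraries and 61.7, 62.3 and 60.4 CPM in the parental libraries. With spreads this small, the 1.52-fold rise (log2 fold change 0.60, SE 0.046) had the lowest adjusted p of the genes that rose, 3.53e-09 in edgeR.

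KLF11 (ENSG00000172059, hg38 chromosome 2, 10042849 to 10054836, plus strand), also called TIEG2, had 13.7, 13.9 and 13.2 CPM in the knockout libraries and 7.70, 7.54 and 7.45 CPM in the parental libraries. It rose 1.80-fold (log2 fold change 0.85, SE 0.079, edgeR adjusted p 5.69e-08). KLF10 and KLF11 rose together, and the ratio of KLF10 to KLF11 reads was 6.88 ± 0.16 in knockout and 8.13 ± 0.12 in parental libraries (SD, n = 3 each), a log2 difference of -0.24 (exact permutation p = 0.1, the smallest possible). An antisense gene with exons over KLF11, ENSG00000271787, had at most 1 count in any library.

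Both KLF7 and KLF11 lie on chromosome 2, whose genes were higher as a whole in knockout cells. The median log2 fold change of its 1125 tested genes was 0.42 (quartiles 0.17 and 0.62), against -0.013 for genes elsewhere, and 66.8% of them were called higher. Measured from that median, KLF11 stood at 0.43 and KLF7 at 0.24 on the log2 scale. The median covers the whole chromosome, and whether the shift was even along it was not tested. Of the 1125 genes, 11.5% had a fold change at or above that of KLF11, and 21.7% one at or above that of KLF7. A rise of the chromosome and a rise of these genes cannot be told apart in gene counts. KLF7 and KLF11 are also the denominators of the KLF6/KLF7 and KLF10/KLF11 ratios. The log2 differences of these ratios, -0.26 and -0.24, were smaller in size than the chromosome median of 0.42. A changed balance of the paired genes and a rise of the chromosome cannot be told apart there either. The other 4 genes that rose lie on chromosomes 8, 9, 10 and 19, whose medians were between -0.022 and 0.014.

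**Figure D2:**
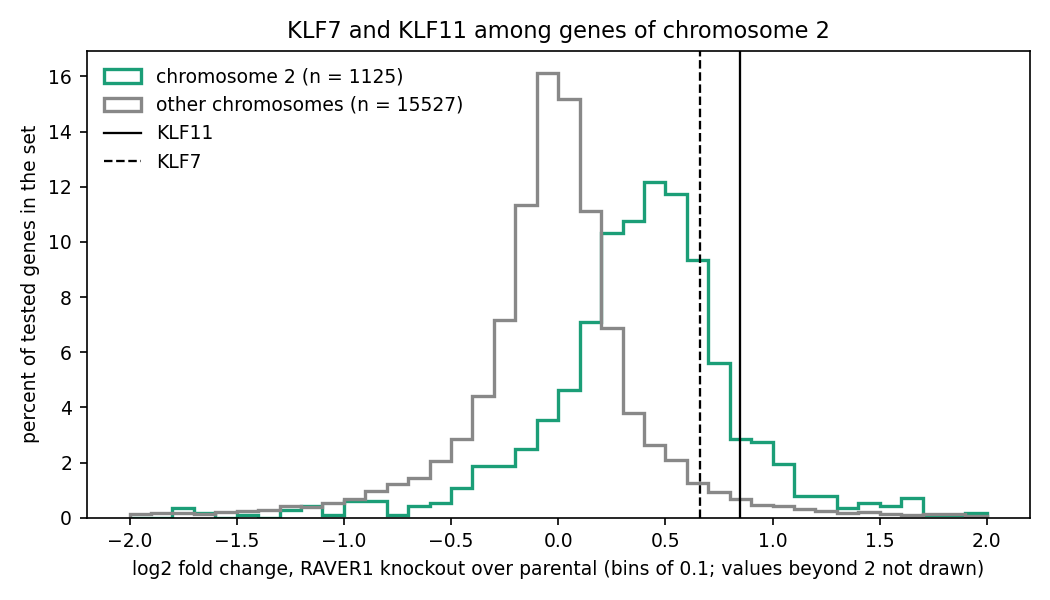
Log2 fold changes of knockout over parental cells for tested genes of chromosome 2 (green, 1125 genes) and of all other chromosomes (grey, 15527 genes), as percent of each set per bin, with lines at KLF11 (0.85) and KLF7 (0.66). The green curve is shifted to the right, and both lines fall in its upper part.

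KLF9 (ENSG00000119138, hg38 chromosome 9, 70384597 to 70414624, minus strand), a factor induced by glucocorticoids and thyroid hormone, was the lowest of the 10. Its counts were 61, 60 and 51 in the knockout libraries and 27, 35 and 37 in the parental libraries. It averaged 1.58 ± 0.07 CPM in knockout and 1.03 ± 0.21 CPM in parental cells (SD, n = 3 each), a 1.54-fold rise (log2 fold change 0.62, SE 0.20, edgeR adjusted p 0.0167). Parental replicate 1, at 0.788 CPM, was lower than the other two parental libraries. Without it the log2 fold change was 0.46 and the call was lost (edgeR adjusted p 0.106), and it was also lost in DESeq2 (adjusted p 0.0707).

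KLF13 (ENSG00000169926, hg38 chromosome 15, 31326855 to 31435665, plus strand), related to KLF9 and known as an activator of the chemokine gene CCL5 in T lymphocytes, changed least. Its levels were 48.9, 45.7 and 47.5 CPM in the knockout libraries and 56.0, 55.1 and 53.3 CPM in the parental libraries, and it fell to 0.865 of the parental level (log2 fold change -0.21, SE 0.052, edgeR adjusted p 0.00300). KLF9 and KLF13 moved in opposite directions, and the ratio of KLF9 to KLF13 reads was 0.0333 ± 0.0012 in knockout and 0.0188 ± 0.0041 in parental libraries (SD, n = 3 each). That is a log2 difference of 0.85 (exact permutation p = 0.1, the smallest possible). Without parental replicate 1 the log2 difference was 0.65.

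KLF3 (ENSG00000109787, hg38 chromosome 4, 38664196 to 38701042, plus strand), a repressor through CtBP, was at 23.8, 25.4 and 26.6 CPM in the knockout libraries and at 33.4, 35.9 and 34.8 CPM in the parental libraries. It fell to 0.728 of the parental level (log2 fold change -0.46, SE 0.061, edgeR adjusted p 6.43e-06). Its antisense gene KLF3-AS1 had 3, 6 and 7 counts in knockout and 5, 11 and 10 counts in parental libraries, few beside the 827 to 1145 counts of KLF3. Of the 10 KLF pseudogenes in the table, 1 had any counts, 2 in all.

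**Figure D3:**
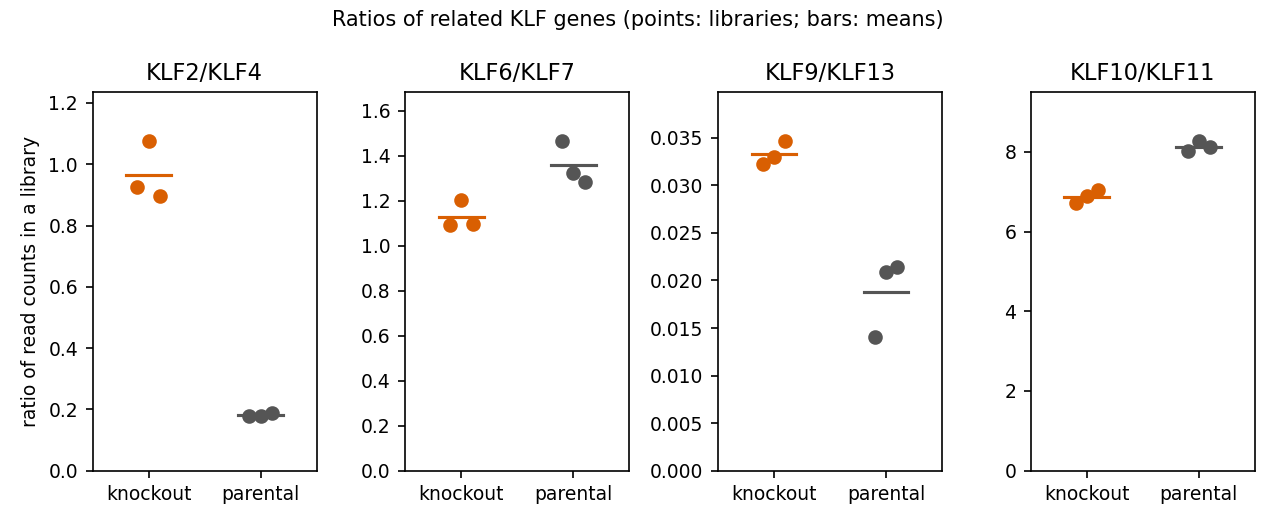
Ratio of read counts between related genes within each library, for KLF2/KLF4, KLF6/KLF7, KLF9/KLF13 and KLF10/KLF11, with 1 point per library, bars at the mean of 3, knockout left of parental, and each vertical axis starting at 0. The knockout mean is above the parental mean for KLF2/KLF4 (0.966 against 0.181) and KLF9/KLF13, and below it for KLF6/KLF7 and KLF10/KLF11. KLF7 and KLF11 lie on chromosome 2, whose genes were higher as a whole in knockout cells.

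Levels corrected for gene length (RPKM, from TMM-scaled counts and the gene lengths in the table) put the 10 genes in order. In knockout cells KLF10 was highest at 24.5 ± 0.5 RPKM, followed by KLF5 at 10.7 ± 0.5 and KLF6 at 7.32 ± 0.57 RPKM (SD, n = 3 each). KLF13 (5.02), KLF7 (4.29) and KLF3 (3.73 RPKM) came next, then KLF11 (2.96), KLF2 (2.71) and KLF4 (2.17 RPKM), with KLF9 last at 0.305 RPKM. The libraries of KLF11 and KLF2 overlapped, as did those of KLF2 and KLF4, and all other neighbours were apart. In parental cells KLF10, at 16.1 ± 0.2 RPKM, and KLF5, at 16.0 ± 0.8 RPKM, could not be ordered. KLF4 (5.84 RPKM) overlapped with KLF13 (5.81 RPKM), which overlapped with KLF6 (5.53 RPKM), followed by KLF3 (5.13), KLF7 (2.71), KLF11 (1.65), KLF2 (1.38) and KLF9 (0.198 RPKM). KLF4 thus went to rank 9 in knockout cells, against rank 3 in parental cells. With the longest annotated transcript as the length, KLF3 (4.94 RPKM) stood above KLF7 (4.76 RPKM) and KLF2 (3.79 RPKM) above KLF11 (3.37 RPKM) in knockout cells, and KLF13 (8.02 RPKM) above KLF4 (7.60 RPKM) and KLF2 (1.92 RPKM) above KLF11 (1.88 RPKM) in parental cells, so the order of these neighbours depends on the length used.

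Corrected for length, the summed level of the 10 genes was similar in both groups, and the share that each gene took of it was not. The sum was 63.6 ± 2.0 RPKM in knockout and 60.3 ± 1.4 RPKM in parental cells (SD, n = 3 each). The lowest knockout and highest parental library were both at 61.3 RPKM. Without the length correction the sum was 310 to 328 CPM in knockout and 295 to 307 CPM in parental libraries. By that measure the groups did not overlap, and knockout was higher. KLF10 held 38.5% ± 0.9 of the sum in knockout and 26.7% ± 0.8 in parental cells. The share of KLF5 was 16.8% ± 0.5 in knockout and 26.5% ± 1.0 in parental cells, and that of KLF4 was 3.40% ± 0.26 in knockout and 9.68% ± 0.76 in parental cells. KLF16, which is not among the 10, stood at 19.9 RPKM in knockout and 17.4 RPKM in parental cells. In parental cells that is above KLF10, at 16.1 RPKM. The shares thus describe the 10 genes and not all KLF transcripts.

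**Figure D4:**
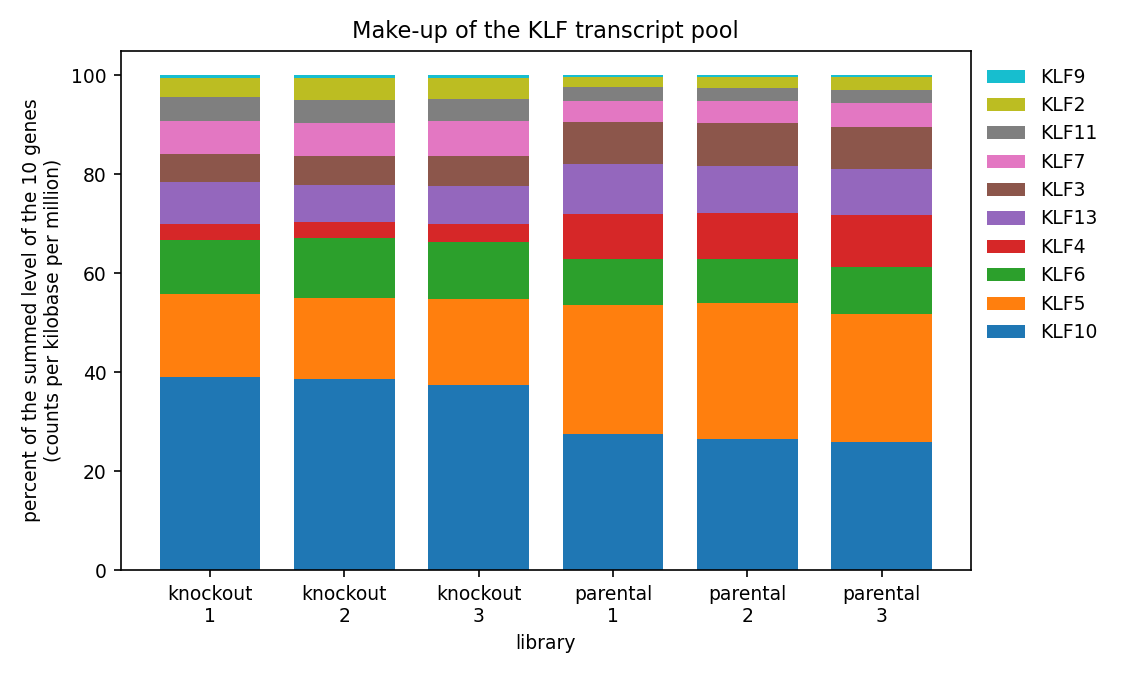
Share of each gene in the summed RPKM of the 10 Krüppel-like factors, as stacked bars that reach 100%, 1 bar per library with the 3 knockout libraries left of the 3 parental ones. KLF10 takes 37.5% to 39.2% of the knockout bars and 26.0% to 27.5% of the parental bars, while the KLF5 and KLF4 bands are narrower in knockout libraries.

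Across the rest of the family, the factors outside the 10 genes moved both ways. Of 17 other KLF and SP genes 8 had enough counts to be tested, 3 were called higher and 2 lower, with a median log2 fold change of 0.072. That is 62.5% called, against 41.4% of all tested genes. SP9, known from development of the forebrain, fell most (-1.63, SE 0.090, edgeR adjusted p 3.57e-11), with 5.21 ± 0.12 CPM in knockout and 16.1 ± 1.5 CPM in parental cells (SD, n = 3 each), although it lies on chromosome 2. KLF12, a CtBP-binding repressor like KLF3, rose by 0.44 (SE 0.093) where KLF3 fell. SP3, on chromosome 2, rose by 0.27, and SP2 fell (-0.25). KLF16 rose by 0.19 (SE 0.053), and was named here after its value was known. KLF1, KLF8, KLF14, KLF15, KLF17 and KLF18 were below the filter on low counts, with means of at most 0.243 CPM in knockout and 0.0819 CPM in parental cells.

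**Figure D5:**
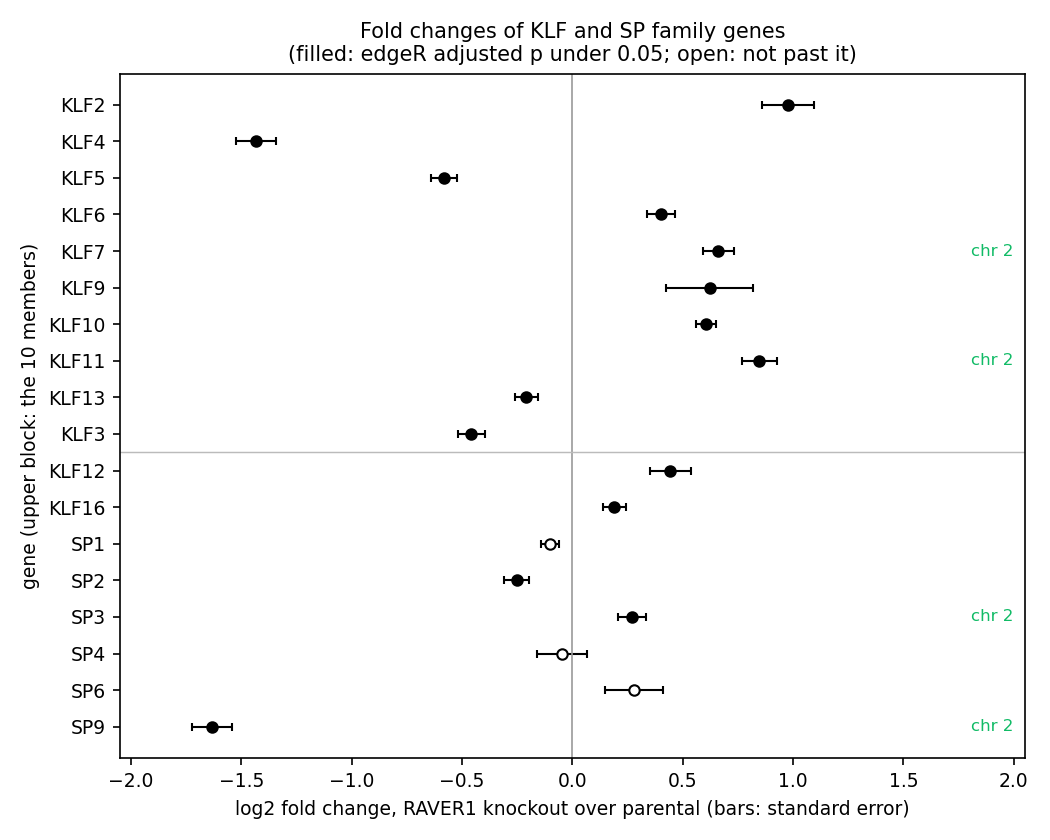
Log2 fold changes of knockout over parental cells with standard errors for the 10 genes (upper block) and the 8 other tested KLF and SP genes (lower block), filled where the edgeR adjusted p was under 0.05, with genes of chromosome 2 marked. KLF4 (-1.43) and SP9 (-1.63) lie farthest to the left, and KLF2 (0.98) farthest to the right.

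Upstream of KLF2 and KLF4, the kinases MEK5 and ERK5 activate MEF2 factors. Of 8 genes of this arm 6 were tested, 4 were called higher and 1 lower, with a median log2 fold change of 0.22. That is 83.3% called, against 41.4% of all tested genes. MAP3K2, a kinase that activates MEK5, rose by 0.71 (SE 0.074) and lies on chromosome 2, and MEF2A rose by 0.38 (SE 0.072) and MEF2D by 0.25 (SE 0.048). MAP2K5, which encodes MEK5, fell (-0.20, SE 0.066, edgeR adjusted p 0.0178), a call that ended when knockout replicate 2 (-0.16), knockout replicate 3 (-0.19) or parental replicate 1 (-0.16) was left out. MAPK7, which encodes ERK5, stood at -0.10 (SE 0.056) and was not past the threshold (edgeR adjusted p 0.158). MEF2C averaged under 0.05 CPM in both groups.

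KLF10 and KLF11 are TGFB-inducible. Of 12 TGFB ligand, receptor, SMAD and SMAD corepressor genes, 6 were called higher and 2 lower (66.7% called, against 41.4% of all tested genes). The median of the 12 was 0.14. The lower genes were 1 in place of 2 without knockout replicate 2, knockout replicate 3 or parental replicate 3. The ligand TGFB2 rose by 0.77 (SE 0.060), the signal transducer SMAD3 by 0.54 (SE 0.038) and the SMAD corepressor SKIL by 0.42 (SE 0.094), while the receptor TGFBR2 fell (-1.02, SE 0.041). The groups overlapped for SKIL.

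Partners of the KLF proteins changed little in size. Of 12 corepressors and coactivators 3 were called lower and 0 higher in edgeR (25% called, against 41.4% of all tested genes). The median log2 fold change of the 12 was -0.023. DESeq2 and limma-voom also put 0 of them higher, and 1 gene was higher with an edgeR p under 0.05 before adjustment, while 1 was called higher without knockout replicate 1 and 2 with the replicate number as a block. The acetyltransferase KAT2B fell (-0.43, SE 0.082) and so did the deacetylase HDAC1 (-0.22, SE 0.044). The call of SIN3A (-0.12, SE 0.041, edgeR adjusted p 0.0235) was lost without knockout replicate 3 or any single parental replicate, with values between -0.13 and -0.11, and with no filter on low counts (-0.12). The corepressor genes CTBP1 and CTBP2, which serve KLF3, stood at 0.014 and -0.032 and were not past the threshold. Of 8 ubiquitin ligases reported to act on KLF proteins 1 was higher and 3 lower (50% called, against 41.4% of all tested genes). The median of the 8 was -0.048. The higher genes were 2 without knockout replicate 1, with no filter on low counts, with the replicate block and with scaling factors from genes outside chromosome 2. SIAH1 (-0.28), VHL (-0.22) and SMURF1 (-0.16) fell, and ITCH rose by 0.16. The SMURF1 call was lost without knockout replicate 3, parental replicate 1 or parental replicate 3 (-0.15 to -0.14), and the ITCH call without knockout replicate 2, knockout replicate 3, parental replicate 1 or parental replicate 3 (0.11 to 0.15) and with upper-quartile scaling (0.12).

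Genes reported as KLF targets in various cell types moved both ways. Of 20 such genes 16 were tested, 9 were called higher and 4 lower, with a median log2 fold change of 0.23. That is 81.25% called, against 41.4% of all tested genes. CDH1, the E-cadherin gene and a reported target of KLF4, fell (-2.20, SE 0.061), in the same libraries as KLF4. TAGLN, a smooth muscle gene, rose by 1.57 (SE 0.062), MYC by 0.59 (SE 0.045) and the stress factor ATF3 by 0.51 (SE 0.13). Gene counts in 2 groups do not show which factor acts on which gene.

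KLF9 is a target of the glucocorticoid receptor, and of 7 tested genes of that receptor and its induced genes 3 were higher and 3 lower. Their median was 0.030, and 85.7% were called, against 41.4% of all tested genes. The phosphatase gene DUSP1 rose by 1.46 (SE 0.044) and the kinase gene SGK1 by 0.40 (SE 0.063), while CEBPD (-1.33, SE 0.068) and FKBP5 (-0.47, SE 0.058) fell. Several KLF genes, among them KLF2, KLF4, KLF6 and KLF10, are immediate early genes in other cells. Of 13 tested immediate early genes outside the family 6 were higher and 3 lower, with a median of 0.28 and 69.2% called. FOSL1, of the AP-1 family, rose by 1.24 (SE 0.082), the nuclear receptor NR4A1 by 0.86 (SE 0.067) and JUNB by 0.72 (SE 0.056), and IER3 fell (-0.74, SE 0.090). Over the 80 distinct tested genes of these lists, 30 were higher and 21 lower, which is 63.75% called, against 41.4% of all tested genes. The lists were drawn up with earlier results of these data known, so these shares are a description.

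Genes with the most similar profile over the 6 libraries were sought for the gene that rose most and the one that fell most. For KLF2 these were TNIP3, SHANK2 and WDR35, with Pearson's r of log2 CPM of at least 0.998 and log2 fold changes of 1.57, 0.39 and 0.75. WDR35 lies on chromosome 2. For KLF4 they were CYREN, GTF2IP1 and C9orf116, with log2 fold changes of -0.25, -0.41 and -0.64, where GTF2IP1 is a pseudogene whose reads may not be separable from those of its parent gene. Such values mark little more than the split into 2 groups, since 1115 of 16642 other tested genes reached an r of 0.95 with KLF2 and 1175 with KLF4.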

How the data were processed

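PolyA RNA was extracted with TRIzol and prepared with the Illumina Stranded mRNA kit, per the labels' protocols. Reads were trimmed with cutadapt 2.8, aligned to hg38 with HISAT2 2.1.0, and featureCounts 2.0.0 made the gene counts; the tools and build come from the submitters' processing notes (per the labels). The authors deposited raw read counts per gene as whole numbers, with 1 gene length each. Not given in the sources used here are the annotation release, the strand setting and the handling of multimapping reads, so reads of overlapping or near-identical genes are uncertain. Positions came from GENCODE 29 on the same build, and promoters from RefSeq on GRCh38.p14.

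Groups and replicate numbers came from the sample titles. Counts were filtered with filterByExpr, scaled with TMM and tested with edgeR 4.0.16 (quasi-likelihood F-test, no covariate) in R 4.3.3. P-values were adjusted over all 16652 genes tested, with a threshold of 0.05. Each standard error is the fold change divided by the root of F. Alternatives were other scalings and filters, a replicate block, DESeq2 1.42.0, limma-voom (limma 3.58.1), a threshold of 0.01, and each library left out. No replicate pair agreed within sampling noise (chi-square per degree of freedom at least 2.41), so all 6 libraries were kept. On counts simulated for this comparison (16434 genes tested), the test recovered 36 of 50 genes with a 1.25-fold change, 44 of 50 with a 1.5-fold and 48 of 50 with a 2-fold change. In that simulation 16234 of the tested genes were unchanged, while 41.4% of genes were called in the data. The adjustment was thus stricter in the simulation, and its recovery rates may not hold for the data.

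The 10 genes, the lists and the tests were chosen with earlier results of these data known. Named from each list were up to 4 genes past the threshold with the largest change. All 10 Krüppel-like factors and RAVER1 were named whatever their values. For the largest rise and fall, the 3 genes with the highest correlation were named. Outside that rule CTBP1, CTBP2, MAPK7, MEF2C, KLF16, the KLF genes below the filter and cell type markers were named too.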

Additional observations from a re-analysis of the deposited data

How the results depend on the processing

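Every one of the 10 genes kept its direction under the 15 alternatives, and KLF9 was the only one to lose its call (DESeq2, a threshold of 0.01, and without parental replicate 1). The calls of the other 9 genes held with RLE or upper-quartile scaling, with factors from genes outside chromosome 2, with no filter or at least 1 CPM in 3 libraries, and in limma-voom. The median signed log2 fold change was 0.50 over the 10 genes, a value that mixes 6 rises and 4 falls and is no common rise. It was 0.42 to 0.54 when single libraries were left out, with the lowest value without parental replicate 1. With all 6 libraries the median lay between KLF6 (0.40) and KLF10 (0.60). Without parental replicate 1, KLF9 was at 0.46, below the lowest KLF10 value of 0.57 among the alternatives, and so moved to the middle of the order. Why that library differs was not tested. Fewest genes were higher, 5 in place of 6, in DESeq2, at a threshold of 0.01 and without parental replicate 1. With the replicate number as a block, 6 of the 10 genes were higher and 4 lower, as without it, and 4275 of all genes were higher and 4071 lower, against 3543 and 3343. Deviations of same-numbered libraries correlated at 0.216, 0.0914 and 0.0470. Not all of these passed 0.1, the bound used for pairing, so the libraries were taken to share only a number, although 4 of 6 correlated best with their own number, a hint from the data and not from the design. Depth limits KLF9 most, at 27 to 61 counts per library.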
